A study of Mus musculus with 10 samples.

Results

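Described here are 9 genes of the transcriptional machinery that builds and tunes skeletal muscle, out of 20009 genes with a count: Myod1, Myog, Myf6, Mef2a, Mef2c, Mef2d, Vgll2, Hdac4 and Hdac5. They were chosen by name, with earlier results of these data known, and each value is the sum of the counts on the transcripts of the gene. Soleus, the slow postural muscle of the calf, was set against TA, the tibialis anterior of the shin and a fast muscle, both from mice labelled wild type. The 10 RNA sequencing libraries were soleus from 3 males and 2 females, and TA from 3 males and 2 females, with a shared replicate number read as 1 mouse. The labels name no strain, age, treatment or batch, and each mouse is of 1 sex only, so sex and any cohort of animals cannot be told apart. Levels are scaled counts, in CPM, the counts of a gene for each 1e6 counts of a library. Each fold change is soleus over TA on the log2 scale from edgeR, its standard error (SE) comes from the same model, and it is called at an adjusted p under 0.05 over all genes tested. Soleus male 1 stands for the soleus library of male replicate 1, and so on.

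Myod1, Myog and Myf6 encode myogenic regulatory factors, basic helix-loop-helix proteins that bind E-boxes together with E proteins and drive muscle differentiation. MEF2 proteins, here from Mef2a, Mef2c and Mef2d, bind A/T-rich sites beside them and carry calcium and activity signals to muscle promoters. The class IIa histone deacetylases, among them those of Hdac4 and Hdac5, bind MEF2 and hold it silent until kinases such as CaMKII, SIK, PKD and AMPK phosphorylate them, after which 14-3-3 proteins keep them out of the nucleus. Vgll2 encodes a vestigial-like cofactor of the TEAD factors that is enriched in skeletal muscle and has been tied to the slow fiber programme in mice. In rodent muscle Myod1 has been described as the factor of fast muscles and Myog as that of slow muscles, and both are raised by denervation.

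Mef2d is shown first by sequence, because the files count transcripts and its coding transcripts differ by short exons. Mef2d-201, Mef2d-203 and Mef2d-204 carry exon alpha1 (chr3:88158034-88158171, plus strand). Mef2d-202 carries exon alpha2 (chr3:88158221-88158355, plus strand), known as the muscle-specific choice, in its place. Mef2d-203 also carries the short exon beta (chr3:88161781-88161801, plus strand). The exons follow GENCODE M21 on GRCm38, are printed 5′ to 3′, and in alpha1 and alpha2 the capitals mark the longest run the 2 exons share.
Mef2d exon alpha1: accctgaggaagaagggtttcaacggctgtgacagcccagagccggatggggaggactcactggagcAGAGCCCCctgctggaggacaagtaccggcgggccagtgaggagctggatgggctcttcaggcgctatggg
Mef2d exon alpha2: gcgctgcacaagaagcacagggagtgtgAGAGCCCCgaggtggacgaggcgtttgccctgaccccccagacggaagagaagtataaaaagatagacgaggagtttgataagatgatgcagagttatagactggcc
Mef2d exon beta: ACTGAGGACCATTTAGATCTG
Exon alpha1 is 138 bases long and exon alpha2 is 135 bases long, and 74 bases are identical over 144 aligned positions, a share of 51.4%. All 165 of the 31-base words found only in Mef2d-202 touch exon alpha2, and all 48 found only in Mef2d-203 touch exon beta. The counts on those 2 transcripts are therefore read as counts over these exons, not as a choice between exons.

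Promoter sequence is shown for Vgll2 and Myog, the members with a call between groups. The windows hold the 250 bases before the start in RefSeq (GRCm38.p6), and capitals mark motif matches. Searched on both strands were the E-box CANNTG, the MEF2 consensus, the same consensus with any first and last base, the MEF3 motif TCAGGTTTC and the TEAD motif CATTCC. The 2 forms of the MEF2 site overlap by construction.
Vgll2 (chr10:52022252-52022501, plus strand): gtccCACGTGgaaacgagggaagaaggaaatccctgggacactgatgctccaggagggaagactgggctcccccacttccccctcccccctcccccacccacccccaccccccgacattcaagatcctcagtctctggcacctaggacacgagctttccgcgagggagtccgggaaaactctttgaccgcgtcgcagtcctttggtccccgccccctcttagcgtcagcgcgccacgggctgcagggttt
Myog (chr1:134289754-134290003, plus strand): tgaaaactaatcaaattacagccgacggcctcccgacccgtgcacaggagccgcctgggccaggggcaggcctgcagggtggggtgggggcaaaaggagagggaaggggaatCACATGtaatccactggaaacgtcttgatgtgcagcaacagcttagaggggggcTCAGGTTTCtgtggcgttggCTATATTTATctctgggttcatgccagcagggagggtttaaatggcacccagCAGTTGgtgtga
The Vgll2 window held 1 E-box, which began 246 bases before the start. The Myog window held E-boxes at 138 and 12 bases before the start, 1 relaxed MEF2 match at 64 bases and 1 MEF3 motif at 84 bases. In GENCODE M21, used for the counts, Myog starts at 134289989, inside this window. The E-box at 12 bases thus lies within the counted transcript. Among 32536 RefSeq windows of this length, 66.2% held an E-box, 2.89% the MEF2 consensus, 8.45% its relaxed form, 0.378% the MEF3 motif and 12.6% the TEAD motif. In all, 7 of the 9 members had an entry, with 9 windows.

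The libraries held 726414 to 961844 counts each. The slow fiber markers Myh7, Tnni1, Tnnt1 and Myl2 summed to 2683 to 3270 CPM in soleus and to 0 to 2.31 CPM in TA. The fast fiber markers Myh4, Actn3, Pvalb and Mybpc2 summed to 92.4, 64.2 and 876 CPM in the soleus of males 1 to 3 and to 950.2 and 262 CPM in the soleus of females 1 and 2, against 20315 to 35187 CPM in TA. Soleus male 3 and soleus female 1 thus held more fast fiber RNA than the other soleus libraries, and its part in the values of the members was not tested. Soleus female 2 stands apart, with counts on 15070 genes, against 11073 to 11858 genes in the other soleus libraries. Counts on annotated retained-intron transcripts came to 12.5% of its counts outside Gm20594 and Cep295, and to at most 10.8% in the other soleus libraries. Gm20594 and Cep295 take a large share of every library. They were left out of the total only, so any retained-intron counts of theirs are part of the value. Cep295 took 5.87% of all counts in soleus female 2 and 6.25% in soleus male 1. The log2 fold changes of the members are given with and without soleus female 2, as are the shares and sex differences which that library moved most. Among the members, counts fell on transcripts with sequence of their own. Of 87 annotated member transcripts, 26 have no 31-base word of their own and 0 of these had a count, while 41 of the other 61 were counted. Levels of different genes are therefore not on a common scale and are compared between groups only. In whole muscle, fewer cells of a type and less RNA per cell cannot be told apart.

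Vgll2 (chromosome 10, 52022502 to 52028471) rose in soleus, and it was the only member called between the muscles. It had 126.3, 77.6 and 126.6 CPM in the soleus of males 1, 2 and 3 and 143.7 and 304.9 CPM in the soleus of females 1 and 2. In TA it had 35.0, 30.1 and 32.4 CPM in the males and 86.1 and 74.4 CPM in the females. Within each sex every soleus library stood above every TA library, and the only overlap across the sexes was soleus male 2 below TA female 1. Soleus averaged 156 ± 86.9 CPM and TA 51.6 ± 26.5 CPM (SD over 5 libraries each), a log2 fold change of 1.64 (SE 0.22, adjusted p = 0.000214, edgeR). The level was higher in soleus in 5 of 5 mice, and an exact permutation test, 2-sided and over every way to part the 10 libraries evenly, gave p = 0.0159, where 0.00794 is the smallest it can give. Without soleus female 2 the difference of the means was 66.9 CPM, against 104 CPM with it, the exact permutation p was 0.0317 and the log2 fold change was 1.47 (adjusted p = 0.000228, edgeR). Over all 18 alternative fits the log2 fold change ran from 1.47 to 1.78 and was called each time.

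Of the 9 members 8 passed the filter on low counts and 1 of these was called, where 22% of the 5115 genes tested were called in either direction and 11% were higher in soleus. In each of the 8 the libraries of the 2 muscles overlapped, while 15.1% of the genes tested had groups with no overlap.

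**Figure D1:**
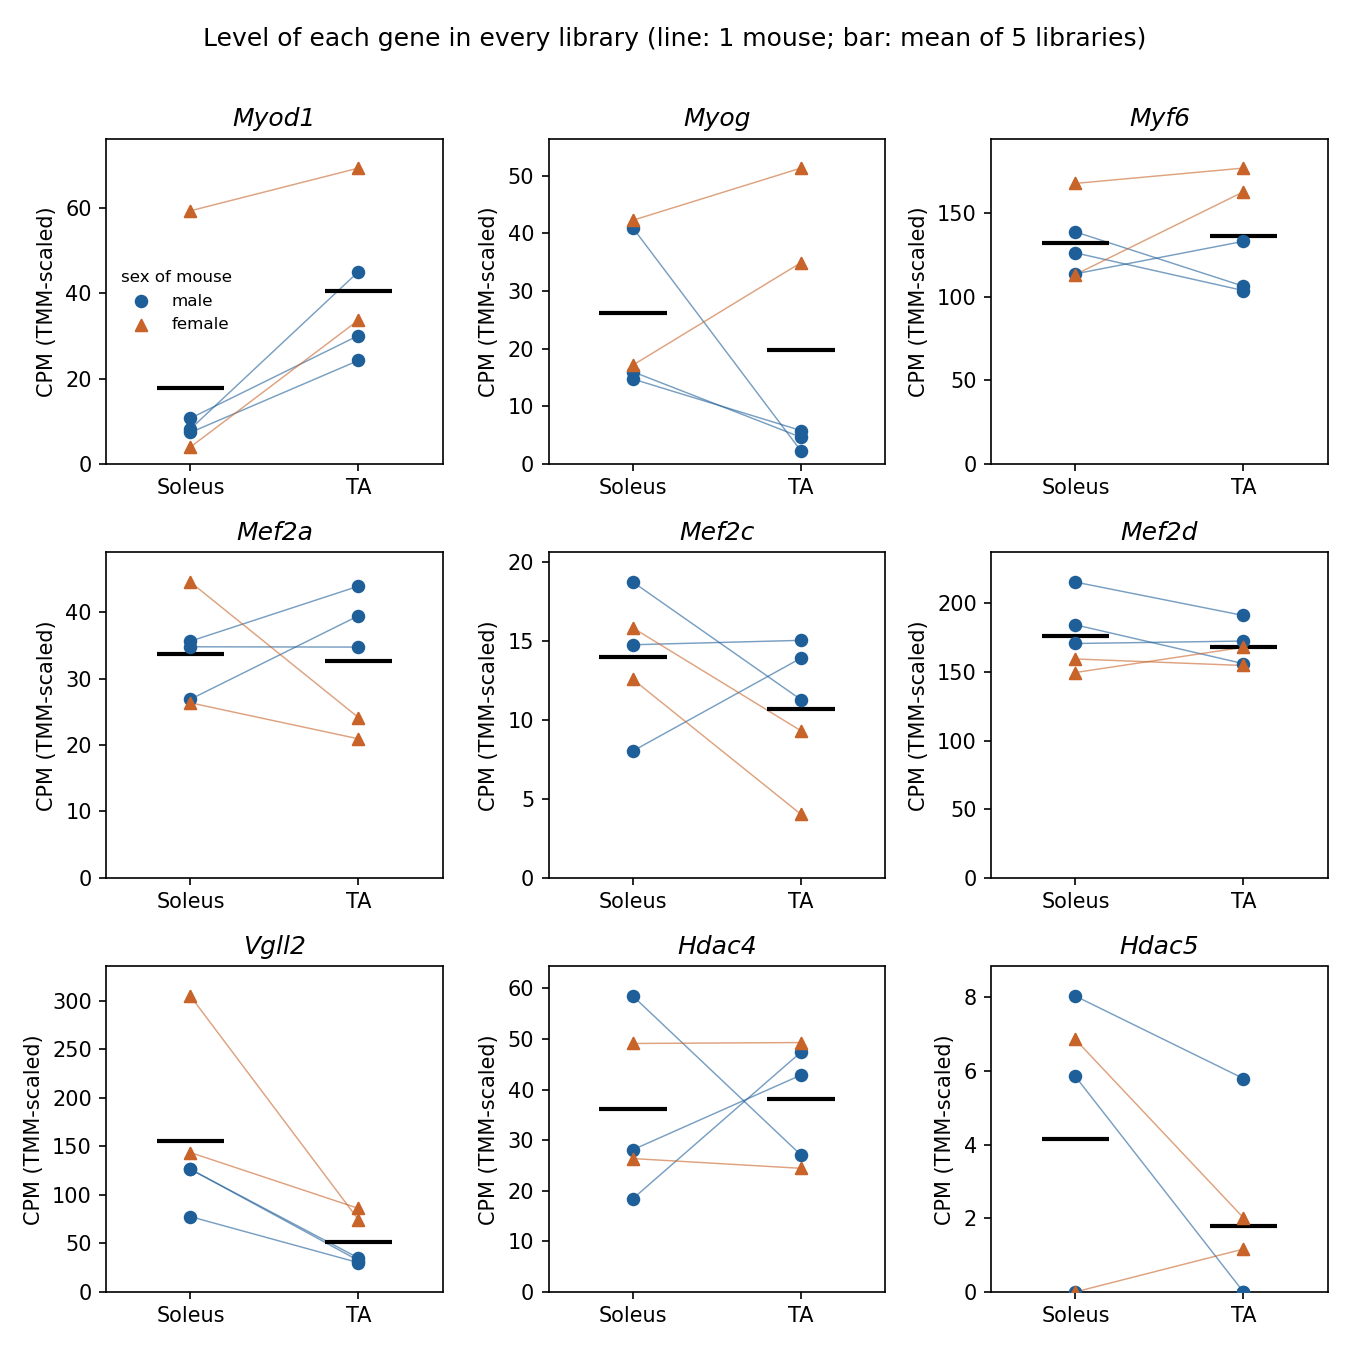
Level of each of the 9 genes in CPM in every library, soleus left and TA right, with a line joining the libraries of 1 mouse, circles for males, triangles for females and a bar at the mean of 5 libraries. Vgll2 is higher in soleus along every line, Myod1 lies lower in soleus in every mouse with soleus female 2 at 59.4 CPM far above the other soleus libraries, and Myog slopes opposite ways in males and females.

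Among the myogenic regulatory factors, Myod1 (chromosome 7, 46376474 to 46379099) stood lower in soleus in 5 of 5 mice but was not called. It had 8.19, 10.7 and 7.37 CPM in the soleus of males 1 to 3 and 3.95 and 59.4 CPM in the soleus of females 1 and 2. In TA it had 45.1, 30.1 and 24.3 CPM in the males and 33.7 and 69.4 CPM in the females. Soleus female 2 alone fell inside the range of TA, and the other soleus libraries all lay below every TA library. Soleus averaged 17.9 ± 23.3 CPM and TA 40.5 ± 17.8 CPM (SD over 5 libraries each). The log2 fold change was -1.29 (SE 0.51, adjusted p = 0.0926, edgeR) and the exact permutation p was 0.135. Without soleus female 2 the log2 fold change was -2.30 with an adjusted p of 0.000623 in edgeR. With the mouse as a block it was -1.47 with an adjusted p of 0.0114, without TA female 1 it was -1.62 with an adjusted p of 0.0467, and with no filter on low counts it was -1.38 with an adjusted p of 7.71e-05. With no filter its SE was 0.29, against 0.51 in the main fit, while the log2 fold change was nearly the same. The call on Myod1 thus changed with the library that stands apart, with the pairing and with the filter.

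Myog (chromosome 1, 134289989 to 134292548) was split by sex in TA and not in soleus. In soleus it had 40.9, 14.7 and 16.0 CPM in males 1 to 3 and 17.1 and 42.3 CPM in females 1 and 2. In TA it had 2.26, 5.79 and 4.62 CPM in the males and 34.9 and 51.3 CPM in the females. The 3 male TA libraries were the lowest of all 10, and the female TA libraries were within or above the range of soleus. Over both sexes the log2 fold change was 0.82 (SE 0.55, adjusted p = 0.335, edgeR), with 26.2 ± 14.1 CPM in soleus and 19.8 ± 22.1 CPM in TA (SD over 5 libraries each).

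Myf6 (chromosome 10, 107492853 to 107494737) encodes MRF4, the factor of this family most typical of mature fibers. It had 126.3, 113.8 and 138.9 CPM in the male and 113.3 and 167.9 CPM in the female soleus libraries, against 103.7, 133.2 and 106.3 CPM in the male and 162.9 and 177.0 CPM in the female TA libraries. The muscles overlapped over most of their range, and the log2 fold change was -0.03 (SE 0.16, adjusted p = 0.934, edgeR).

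Scaling between libraries drops out of the share of each factor in the sum of the 3. Myod1 held 4.67%, 7.69% and 4.55% of that sum in the soleus of males 1 to 3 and 2.94% and 22.0% in the soleus of females 1 and 2. In TA it held 29.9%, 17.8% and 17.9% in the males and 14.6% and 23.3% in the females. The share averaged 8.38 ± 7.83% in soleus and 20.7 ± 6.0% in TA (SD over 5 libraries each), lower in soleus in 5 of 5 mice (exact permutation p = 0.0317, 1 of 7 family shares tested, unadjusted). By sign flips within mice the exact p was 0.0625, the smallest that 5 pairs can give. Without any 1 of the other 4 soleus libraries the exact p was 0.0635, and without soleus female 2 it was 0.00794, again the smallest possible. Myog held 14.4 ± 5.47% in soleus and 8.13 ± 7.41% in TA (exact permutation p = 0.151), and Myf6 held 77.2 ± 9.89% in soleus and 71.2 ± 8.02% in TA (exact permutation p = 0.310; SD over 5 libraries each).

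Satellite cells, the stem cells of muscle, express these factors when they are activated, so their markers were read alongside. The 9 satellite cell genes summed to 104 to 289 CPM in soleus and to 77.8 to 147 CPM in TA, with the highest value in soleus female 2. Pax7, their defining marker, had 30 counts over all libraries and Calcr had none. Of 4 tested, Sdc4, a syndecan coreceptor, rose in soleus, with 92.1 ± 59.4 CPM in soleus and 40.1 ± 17.0 CPM in TA (SD over 5 libraries each; log2 fold change 1.12, SE 0.20, adjusted p = 0.00171, edgeR). Cdh15, the M-cadherin of satellite cells, had a log2 fold change of 0.06 (SE 0.27, adjusted p = 0.906, edgeR). The part of satellite cells in the values of Myod1 and Myog was not tested.

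None of the MEF2 genes was called between the muscles. Mef2d (chromosome 3, 88142372 to 88172086) had 170.7, 215.5 and 184.4 CPM in the male and 159.5 and 149.6 CPM in the female soleus libraries. The TA libraries had 172.5, 191.1 and 156 CPM in the males and 154.7 and 168 CPM in the females. All 10 libraries lay in 1 narrow band, with a log2 fold change of 0.06 (SE 0.13, adjusted p = 0.813, edgeR). Mef2a (chromosome 7, 67231163 to 67372858) had 26.9, 34.8 and 35.6 CPM in the male and 26.4 and 44.5 CPM in the female soleus libraries. The TA libraries had 39.5, 34.8 and 43.9 CPM in the males and 20.9 and 24.1 CPM in the females. The muscles overlapped, and the log2 fold change was 0.08 (SE 0.23, adjusted p = 0.858, edgeR).

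Mef2c (chromosome 13, 83504034 to 83667080) had 18.7, 8.03 and 14.8 CPM in the male and 15.8 and 12.6 CPM in the female soleus libraries, against 11.3, 13.9 and 15.0 CPM in the male and 9.31 and 4.02 CPM in the female TA libraries. The log2 fold change was 0.43 (SE 0.35, adjusted p = 0.431, edgeR), and the muscles overlapped. On protein-coding transcripts alone it was 1.03 (SE 0.41, adjusted p = 0.0897, edgeR), also not called. Of its 104 counts 99 lie on transcripts that begin in 3 stretches of first exons, and 5 on 1 that begins further in. The most distal, from 83504034 to 83504240, held 44 counts in soleus and 23 in TA. The middle one, from 83523473 to 83530138, held 4 counts in soleus and 15 in TA, with 0, 0, 1, 0 and 3 counts in the soleus libraries and 3, 1, 6, 3 and 2 in the TA libraries in the order males 1 to 3, females 1 and 2. All 19 of these counts were on annotated retained-intron transcripts, 14 on Mef2c-209 and 5 on Mef2c-226, so they do not show use of a first exon. The proximal one held 6 counts in soleus and 7 in TA, of which 9 were on the retained intron Mef2c-210. This split was made after the counts were seen and is given without a test. Mef2c is also active in endothelial cells. The 6 endothelial genes summed to 192 to 290 CPM in soleus and to 287 to 843 CPM in TA, and Kdr and Cdh5, their defining receptor and cadherin, fell in soleus, with log2 fold changes of -1.40 (SE 0.25, adjusted p = 0.00170, edgeR) and -1.20 (SE 0.24, adjusted p = 0.00338, edgeR). The part of endothelial cells in the Mef2c value was not tested.

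Within the sum of the 3 MEF2 genes, Mef2d held 78.5 ± 3.94% in soleus and 79.8 ± 5.18% in TA, Mef2a 15.1 ± 3.72% in soleus and 15.2 ± 3.79% in TA, and Mef2c 6.39 ± 2.13% in soleus and 4.98 ± 1.82% in TA (SD over 5 libraries each). The exact permutation p was 0.651 for Mef2d, 0.968 for Mef2a and 0.286 for Mef2c. On protein-coding transcripts alone the Mef2c share was 2.77 points higher in soleus, with an exact p of 0.0397. These are shares of counts, not of molecules, since the 3 genes are counted over different lengths of sequence of their own.

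**Figure D2:**
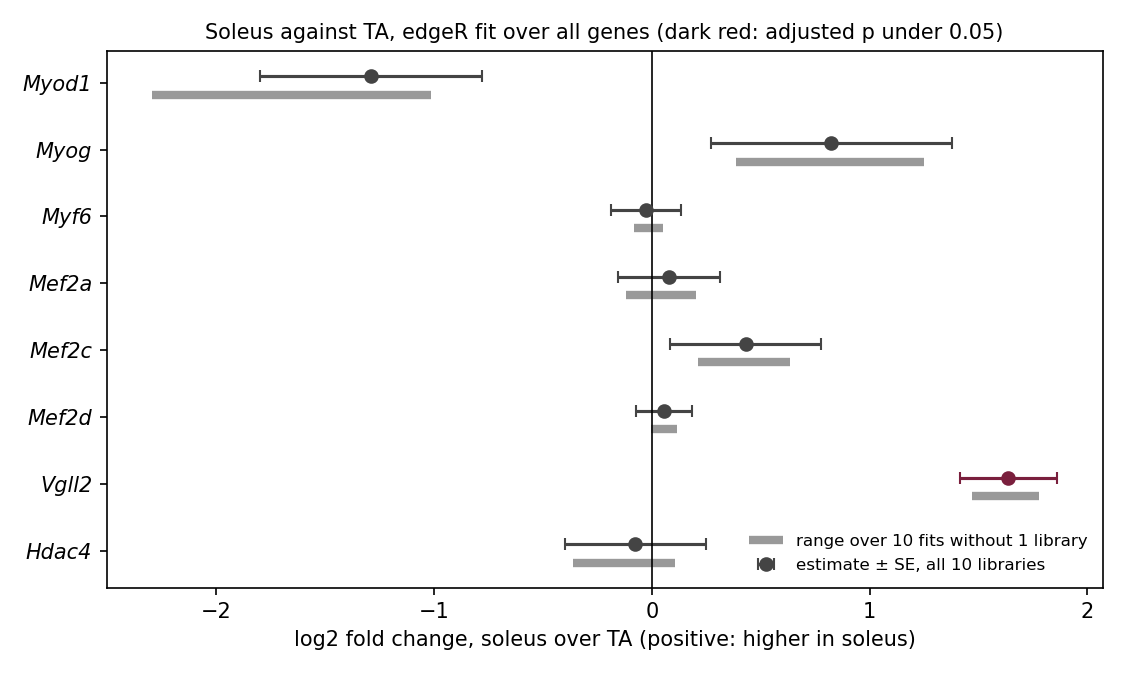
Log2 fold change of soleus over TA for the 8 tested genes (points with SE bars, dark red where called), with grey bars for the range over 10 fits that each leave out 1 library. Vgll2 keeps 1.47 to 1.78 in every such fit, while the bar of Myod1 runs from -2.30 to -1.02.

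The counts on the Mef2d transcripts were compared next. Mef2d-202, with the alpha2 exon printed above, held 25.3%, 26.1% and 38.0% of Mef2d counts in the soleus of males 1 to 3 and 27.3% and 40.5% in the soleus of females 1 and 2. In TA it held 28.8%, 21.8% and 26.7% in the males and 24.1% and 31.1% in the females. Soleus male 3 and soleus female 2 were above every TA library and the other 3 soleus libraries were among them. Soleus averaged 31.4 ± 7.20% and TA 26.5 ± 3.69% (SD over 5 libraries each), with an exact permutation p of 0.246, or 0.327 after adjustment over 9 transcript shares. The share was 2.69 points higher in soleus without soleus female 2, against 4.94 points with it. As a level, Mef2d-202 had a log2 fold change of 0.32 (SE 0.19, adjusted p = 0.260, edgeR). Mef2d-203, with exon beta, held 3.67 ± 1.77% in soleus and 4.43 ± 1.16% in TA (SD over 5 libraries each). Its 61 counts are few, and since the annotation holds exon beta only together with alpha1, any mRNA with alpha2 and beta would not be seen apart. Mef2d-201, whose own sequence lies almost wholly in the last exon (2158 of 2202 words), held 61.6 ± 7.39% in soleus and 66.2 ± 3.21% in TA (SD over 5 libraries each). Per 100 words of their own, Mef2d-201 had 42.4 counts, Mef2d-202 had 256 and Mef2d-203 had 127. These shares of counts thus do not show which exon is the more used, and they are compared between the muscles only. No counts are particular to exon alpha1, which several transcripts share. The share of Mef2d-202 thus sets counts over alpha2 mainly against counts on the last exon of Mef2d-201. A difference in it between the muscles would not by itself show a choice of exon.

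Counts of Mef2a were split between a coding transcript and 2 annotated retained introns. The coding Mef2a-208 held 73.9%, 73.1% and 79.3% in the soleus of males 1 to 3 and 60% and 35.9% in the soleus of females 1 and 2. In TA it held 88.6%, 86.7% and 86.8% in the males and 88.9% and 75.0% in the females. TA female 2 fell among the soleus libraries and the other TA libraries lay above all of them. Soleus averaged 64.4 ± 17.5% and TA 85.2 ± 5.78% (SD over 5 libraries each), lower in soleus in 5 of 5 mice, with an exact permutation p of 0.0159 that came to 0.143 after adjustment over the 9 transcript shares, so it did not pass. The retained intron Mef2a-207 held 20.5 ± 11.6% of soleus and 5.94 ± 8.65% of TA counts (SD over 5 libraries each), with an exact permutation p of 0.0476, adjusted 0.143. Mef2a-212, the other one, held 13.6 ± 7.42% of soleus and 6.09 ± 2.87% of TA counts (SD over 5 libraries each), with an exact permutation p of 0.0397, adjusted 0.143. Without soleus female 2 the differences of soleus from TA were -13.6 points for Mef2a-208, 10.1 for Mef2a-207 and 4.44 for Mef2a-212, against -20.8, 14.6 and 7.46 points with it, and the adjusted exact p was 0.214 for the first and 0.310 for the others. These shares rest on 18 to 39 Mef2a counts a library. Mef2a-208 has 755 of the 31-base words of its own, Mef2a-207 has 3837 and Mef2a-212 has 4191. Per 100 such words they had 27.7, 0.964 and 0.692 counts, so the shares of counts are not shares of molecules. Retained-intron counts of all genes, over a total without Gm20594 and Cep295, came to 7.93% to 12.5% in soleus and 6.19% to 9.0% in TA (exact permutation p = 0.0714). Any retained-intron counts of Cep295 are part of this value. Cep295 took 4.72% to 6.25% of all counts in soleus and 3.85% to 5.71% in TA. The value is therefore not read as a general difference in retained introns, and its part in the Mef2a shares was not tested.

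**Figure D3:**
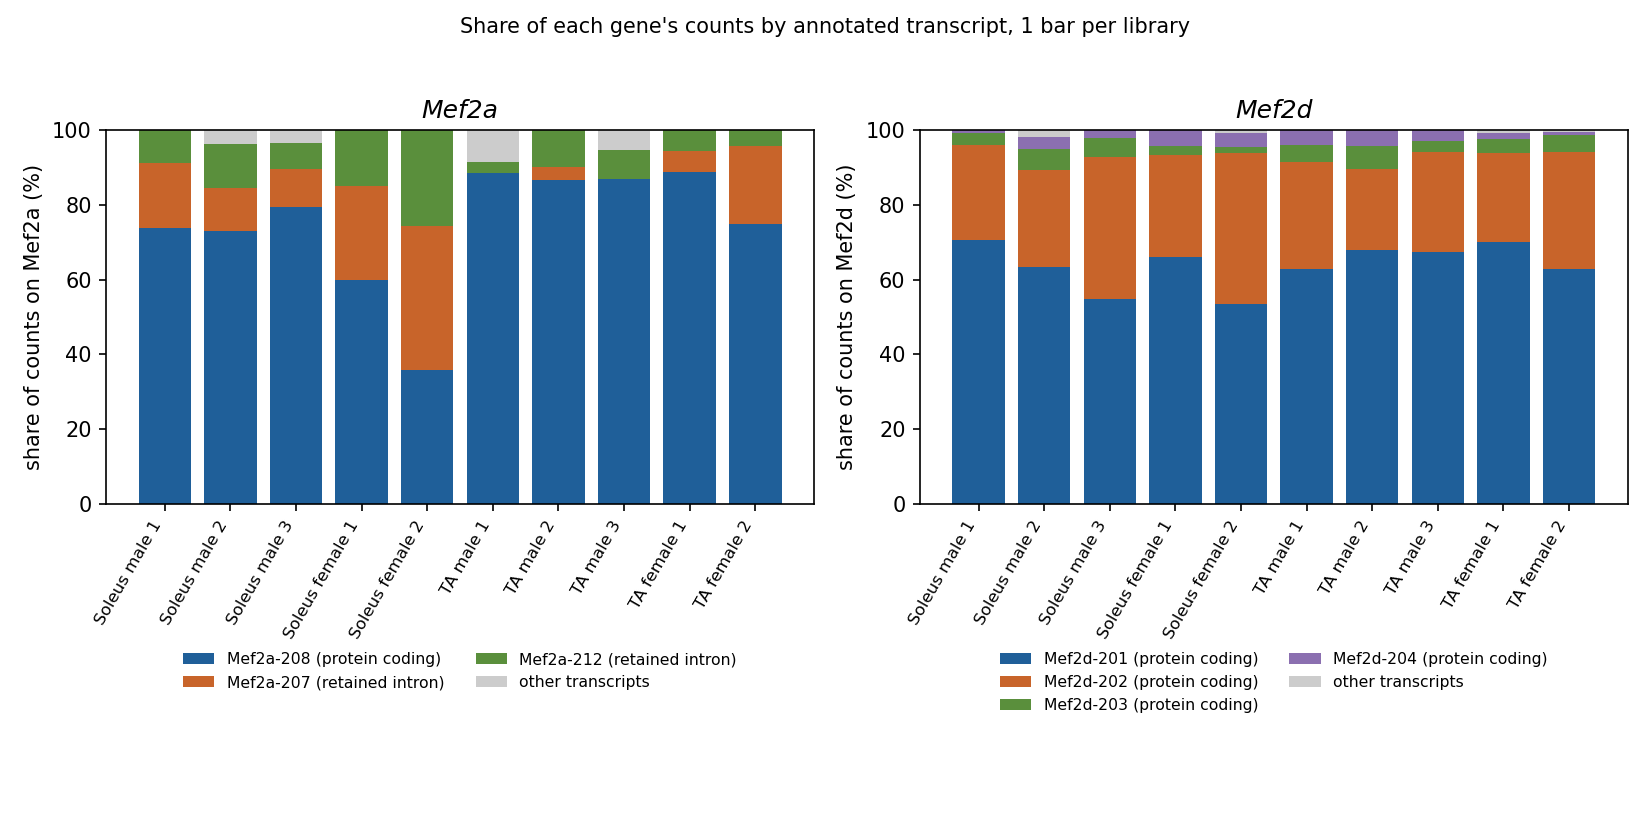
Share in % of the counts on Mef2a (left panel) and Mef2d (right panel) that fell on each annotated transcript, 1 bar per library with soleus before TA. The retained-intron blocks of Mef2a are widest in soleus female 2, where Mef2a-208 holds 35.9%, and the Mef2d-202 block is widest in the same library at 40.5%.

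Vgll2 counts lay on 2 coding transcripts that differ by 3 bases at the start of 1 exon and also at both ends. Vgll2-202 runs from 52022502 to 52028471 and Vgll2-201 from 52022723 to 52028011. The share of each is therefore not read as a choice of that exon start. Vgll2-202 held 96.0 ± 1.63% of soleus and 97.3 ± 1.59% of TA counts (SD over 5 libraries each), with an exact permutation p of 0.254, adjusted 0.327. As a level it rose in soleus by a log2 fold change of 1.64 (SE 0.23, adjusted p = 0.000233, edgeR over 5089 transcripts, of which 24.2% were called). Vgll2-202 has 712 of the 31-base words of its own and Vgll2-201 has 28, and per 100 such words they had 118 and 129 counts, so the share does not show which of the 2 is the more abundant. Vgll2-201 had 29 counts in soleus and 7 in TA.

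Of the class IIa deacetylases, Hdac4 (chromosome 1, 91928779 to 92195699) had 58.5, 28.1 and 18.4 CPM in the male and 26.4 and 49.1 CPM in the female soleus libraries. The TA libraries had 27.1, 42.9 and 47.4 CPM in the males and 24.4 and 49.3 CPM in the females. Both muscles spread over the same range, with a log2 fold change of -0.08 (SE 0.32, adjusted p = 0.906, edgeR). Its range over alternative fits was -0.36 to 0.11, on both sides of 0. Hdac5 (chromosome 11, 102194432 to 102230166) had 25 counts in all, 17 in soleus and 8 in TA, and did not pass the filter. It had 5.85, 8.03 and 0 CPM in the male and 0 and 6.85 CPM in the female soleus libraries, against 0, 5.79 and 0 CPM in the male and 1.16 and 2.01 CPM in the female TA libraries. In the 4 libraries with no count, a count of 0 allows up to 3 counts, or 3.38 to 3.95 CPM, so a difference was not detectable with these counts. Of the 20 annotated Hdac5 transcripts 7 have no 31-base word of their own, and these had 0 counts. Only 3 of the 25 counts were on protein-coding transcripts, so the few counts are not read as a low level of Hdac5. The pooled ratio of soleus to TA for Hdac5 was 2.34 with a 95% counting interval of 0.959 to 6.28. Hdac4 held 91.3 ± 9.31% of the pair's counts in soleus and 95.9 ± 4.87% of them in TA (SD over 5 libraries each), with an exact permutation p of 0.357. Without soleus female 2 the log2 fold change was 0.90 for Myog, -0.05 for Myf6, -0.12 for Mef2a, 0.42 for Mef2c, 0.12 for Mef2d and -0.22 for Hdac4, and none of these was called (adjusted p = 0.333 to 0.884, edgeR).

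Sex was the second condition of the libraries. In TA, Myog fell in males relative to females, with a log2 fold change of male over female of -3.32 (SE 0.59, adjusted p = 0.0347, edgeR), and it was 1 of 8 tested members called where 0.645% of the genes tested were called. The call was lost in 6 of 12 alternative fits, with the value between -3.58 and -2.98 and the adjusted p up to 0.239. It was lost without soleus male 2 (adjusted p = 0.0557), without soleus male 3 (0.0547), and without TA male 1, TA male 2, TA male 3 or TA female 2 (0.118 to 0.239). In soleus Myod1 had a male over female value of -1.88 (SE 0.77, adjusted p = 0.262, edgeR), which was -2.65 and called without soleus female 1 (adjusted p = 0.0020), -1.73 and called without a filter (adjusted p = 0.00554), and 1.11 without soleus female 2 (adjusted p = 0.792, edgeR). The corresponding value of Myog was -0.31 (SE 0.50, adjusted p = 0.801, edgeR), and none of the 8 tested members was called there, where 0.547% of genes were. By muscle, Myog had a log2 fold change of soleus over TA of 2.48 in males (SE 0.59, adjusted p = 0.0161, edgeR, where 13.5% of genes were called). In females it had -0.53 (SE 0.53, adjusted p = 0.604, edgeR, where 7.92% were called). The difference of these values was 3.00 (SE 0.79, unadjusted p = 0.00292, adjusted p = 0.501, edgeR), so the interaction was not called. It was 3.79 without soleus female 2 (adjusted p = 0.136, edgeR). No gene was called for it (0% of those tested), with 351 genes at an unadjusted p under 0.05 in edgeR. Without any filter 58 genes were called, Myog among them. That fit also called 449 genes by sex in soleus and 240 in TA, against 28 and 33 with the filter. Calls of members made only without a filter are read with that limit.

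Vgll2 rose in soleus in each sex, by a log2 fold change of 1.76 in males (SE 0.31, adjusted p = 0.00282, edgeR) and of 1.49 in females (SE 0.35, adjusted p = 0.0241, edgeR). The difference between the sexes was 0.27 (SE 0.45, adjusted p = 0.915, edgeR). In both muscles its male libraries lay below its female ones, with a log2 fold change of male over female of -1.03 in soleus (SE 0.30, adjusted p = 0.128) and -1.30 in TA (SE 0.34, adjusted p = 0.119, edgeR), neither of which passed. In TA it passed without a filter (adjusted p = 0.00601), without soleus female 1 (adjusted p = 0.0146) and without soleus female 2 (adjusted p = 0.0170, edgeR), and in soleus without soleus female 1 (adjusted p = 0.00339, edgeR). In soleus the value was -0.38 without soleus female 2 (adjusted p = 0.788, edgeR). The groups did not overlap between males and females in TA in 5 of 8 tested members, Myog, Myf6, Mef2a, Mef2c and Vgll2, where 31.2% of genes had no overlap. Of these, Mef2a and Mef2c were higher in males, with log2 fold changes of 0.80 (SE 0.30, adjusted p = 0.309) and 1.02 (SE 0.50, adjusted p = 0.467, edgeR), and Myf6 was lower, with -0.57 (SE 0.22, adjusted p = 0.321, edgeR). In soleus the groups did not overlap in 2 of 8, Mef2d and Vgll2, where 30% of genes had no overlap. In order of the group means, Vgll2 ran from soleus female over soleus male and TA female to TA male, and TA female and soleus male were neighbours within their spread.

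**Figure D4:**
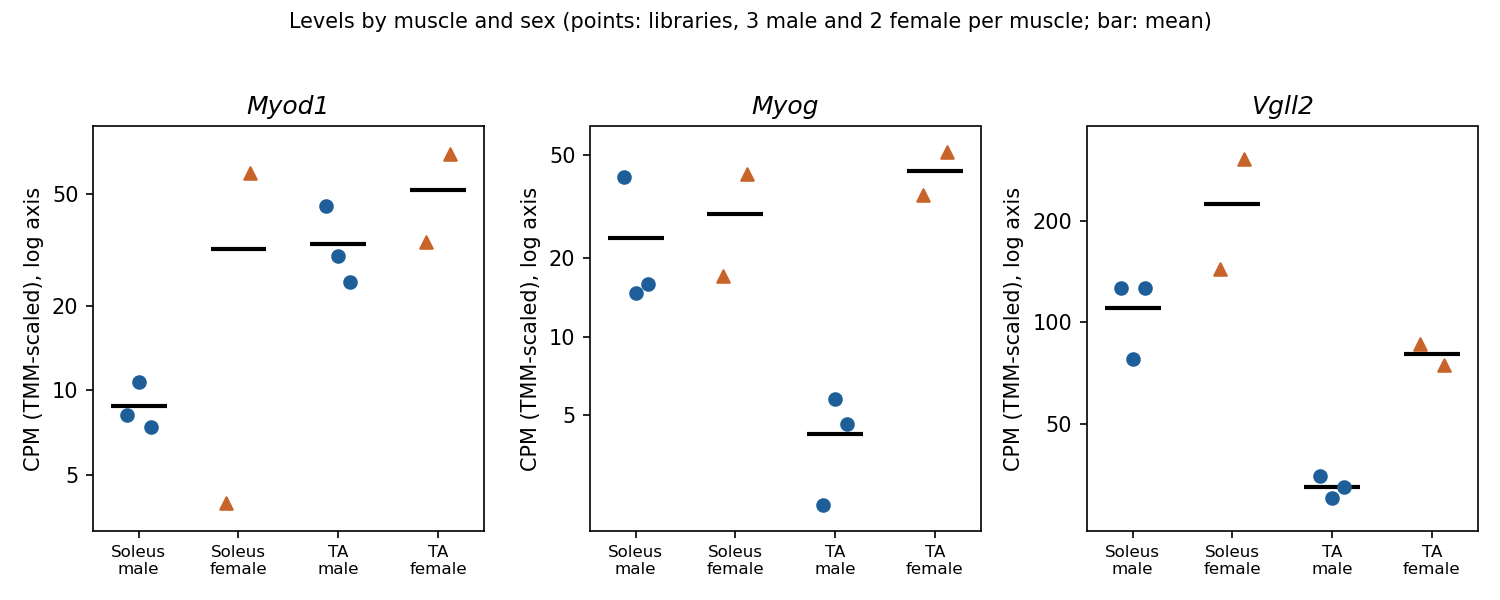
Levels of Myod1, Myog and Vgll2 in CPM on a log axis, by muscle and sex, with a point per library (circles for males, triangles for females) and a bar at the group mean. The male TA libraries have 2.26 to 5.79 CPM of Myog, below all others, and Vgll2 is higher in soleus than in TA within each sex.

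Genes that work with the members were read by lists, each described by its counts beside the 11% of genes higher and 11% lower in soleus and the median log2 fold change of 0.01 over all genes tested. The lists were also chosen with earlier results of these data known, so their counts are a description and not an independent test. Genes of the lists that were not called are named as examples chosen after their values were seen, as are Des and Sik1. Of 13 partners and inhibitors of the myogenic factors, such as the E proteins, the Id proteins and Myf5, none passed the filter. Tcf12, an E protein, had 54 counts and Id3, an inhibitor of E proteins, had 53. Of 9 other histone deacetylases 4 were tested and 1 rose in soleus, with a median of 0.13. This was Hdac9, also a class IIa deacetylase and a repressor of MEF2, with 15.2, 28.1 and 27.0 CPM in the male and 18.4 and 13.7 CPM in the female soleus libraries. In TA it had 3.38, 5.79 and 5.78 CPM in the males and 10.5 and 7.04 CPM in the females. Its lowest soleus library lay above its highest TA library, and the log2 fold change was 1.63 (SE 0.35, adjusted p = 0.00576, edgeR), called in 18 of 18 alternative fits. Hdac3, the catalytic partner of the class IIa enzymes, had a log2 fold change of -0.15 (SE 0.37, adjusted p = 0.827, edgeR).

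None of 7 tested corepressors and 14-3-3 proteins was called, with a median of -0.03. Ncor1, the corepressor that joins class IIa enzymes to Hdac3, had 33 ± 7.34 CPM in soleus and 29.3 ± 3.87 CPM in TA (SD over 5 libraries each). Of 9 tested kinases that act on class IIa deacetylases or on their relatives, 2 rose and 2 fell in soleus, with a median of 0.30. Sik2 and Sik3, salt-inducible kinases, rose. Sik2 had 48.3 ± 44.1 CPM in soleus and 15.6 ± 2.80 CPM in TA (SD over 5 libraries each; log2 fold change 1.53, SE 0.40, adjusted p = 0.0154, edgeR), with 127 CPM in soleus female 2 and 20.9 to 33.5 CPM in the other soleus libraries. Without that library its log2 fold change was 0.93, with an adjusted p of 0.0143 in edgeR. Sik3 had 24 ± 4.41 CPM in soleus and 13.3 ± 3.41 CPM in TA (SD over 5 libraries each; log2 fold change 0.86, SE 0.25, adjusted p = 0.0272, edgeR), a call kept in 12 of 18 fits. It was lost without a filter and without soleus male 1, soleus female 2, TA male 2, TA female 1 or TA female 2, with an adjusted p of up to 0.142. Camk2a, the gene of the alpha form of CaMKII, and Prkaa2, the gene of a catalytic AMPK subunit, fell. Both values are gene sums and do not show which transcripts fell. Camk2a had 29.8 ± 5.97 CPM in soleus and 131 ± 13.4 CPM in TA, and Prkaa2 395 ± 42.7 CPM in soleus and 842 ± 106 CPM in TA (SD over 5 libraries each). The log2 fold change of Prkaa2 was -1.09 (SE 0.14, adjusted p = 0.000141, edgeR). Sik1, itself induced by activity, had 57.3, 40.2 and 40.6 CPM in the male and 94.9 and 86.8 CPM in the female soleus libraries, against 31.6, 12.7 and 24.3 CPM in the male and 91.9 and 157 CPM in the female TA libraries. Its males lay below its females in both muscles. In TA the log2 fold change of male over female was -2.44 (SE 0.34, adjusted p = 0.0128, edgeR), where 0.645% of the genes tested were called by sex. The call on Sik1 was not followed over the alternative fits, in which 1 to 240 genes were called by sex in TA.

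In the VGLL and TEAD family 1 of 2 tested genes rose in soleus. Tead4, a TEAD factor expressed in muscle cells, had 21.0, 18.7 and 27.0 CPM in the male and 9.23 and 7.99 CPM in the female soleus libraries, against 4.51, 4.63 and 5.78 CPM in the male and 3.49 and 5.03 CPM in the female TA libraries. Every soleus library lay above every TA library, and the log2 fold change was 1.74 (SE 0.33, adjusted p = 0.00251, edgeR), called in 18 of 18 alternative fits. Vgll3, a relative of Vgll2, had 8.15 ± 2.17 CPM in soleus and 15.3 ± 6.09 CPM in TA (SD over 5 libraries each; log2 fold change -0.89, SE 0.37, adjusted p = 0.110, edgeR). Tead1, the other main TEAD factor of muscle, had 61 counts and was not tested.

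Of 13 genes known to answer denervation, a response that runs in part through Myog and Hdac4, 5 were tested and 2 rose in soleus, with a median of 0.86. Chrna1, the alpha subunit of the muscle acetylcholine receptor, had 122 ± 38.1 CPM in soleus and 23.3 ± 10.7 CPM in TA (SD over 5 libraries each; adjusted p = 0.000273, edgeR). Ncam1, a cell adhesion molecule, had 9.99 ± 5.94 CPM in soleus and 2.68 ± 1.91 CPM in TA (SD over 5 libraries each; log2 fold change 1.81, SE 0.54, adjusted p = 0.0299, edgeR), a call lost without TA male 1, TA male 2, TA female 1 or TA female 2 (adjusted p up to 0.0772). Chrng, the fetal receptor subunit that denervation brings back, had 6 counts in all. Dach2, Chrne and Fbxo32 of the same list had no count in any library, so the list is read without them. Of 6 tested coactivators 2 fell in soleus, with a median of -0.34. Smarcd3, a chromatin remodelling subunit that pairs with MyoD, had 32.1 ± 13.4 CPM in soleus and 67.2 ± 21.5 CPM in TA (SD over 5 libraries each; log2 fold change -1.10, SE 0.21, adjusted p = 0.00283, edgeR). Ep300, an acetyltransferase and coactivator of MyoD and MEF2, had a log2 fold change of -0.57 (SE 0.16, adjusted p = 0.0264, edgeR), a call lost in 5 of 18 fits, without soleus male 1, soleus male 2, TA male 2, TA male 3 or TA female 2 (adjusted p up to 0.0731).

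Of 10 tested genes known as targets of MEF2, 2 rose and 3 fell in soleus, with a median of 0.18. Xirp1, an actin-binding protein of the myotendinous junction, had a log2 fold change of 1.57 (SE 0.37, adjusted p = 0.0084, edgeR). It had 6009 CPM in soleus female 2 and 989 to 1332 CPM in the other soleus libraries, and 1729 and 1488 CPM in the female and 237 to 416 CPM in the male TA libraries. Without soleus female 2 the log2 fold change was 1.27 (adjusted p = 0.0265, edgeR). Des, the muscle intermediate filament, had 10579 ± 1557 CPM in soleus and 7386 ± 1916 CPM in TA (SD over 5 libraries each; log2 fold change 0.53, SE 0.17, adjusted p = 0.0385, edgeR), a call kept in 12 of 18 fits and lost without soleus male 1, soleus male 3, soleus female 2, TA male 1, TA male 2 or TA female 1. Those that fell were Myom2, a fast-fiber M-band protein (-2.43, SE 0.16), Ckm, the muscle creatine kinase (-1.40, SE 0.23), and Nr4a1, an early response nuclear receptor (-2.30, SE 0.64, adjusted p = 0.0208, edgeR). Nr4a1 was not called without TA female 1 (adjusted p = 0.0618, edgeR), and without soleus female 2 its value was -3.46. Of the markers of regenerating fibers Myh8, the perinatal myosin heavy chain, was the only one tested and fell by 1.85 on the log2 scale (SE 0.32, adjusted p = 0.00145, edgeR), an uncertain value because it shares much sequence with neighbouring myosin genes, among them Myh4, which was higher in TA. Myh3, the embryonic myosin, had 4 counts.

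**Figure D5:**
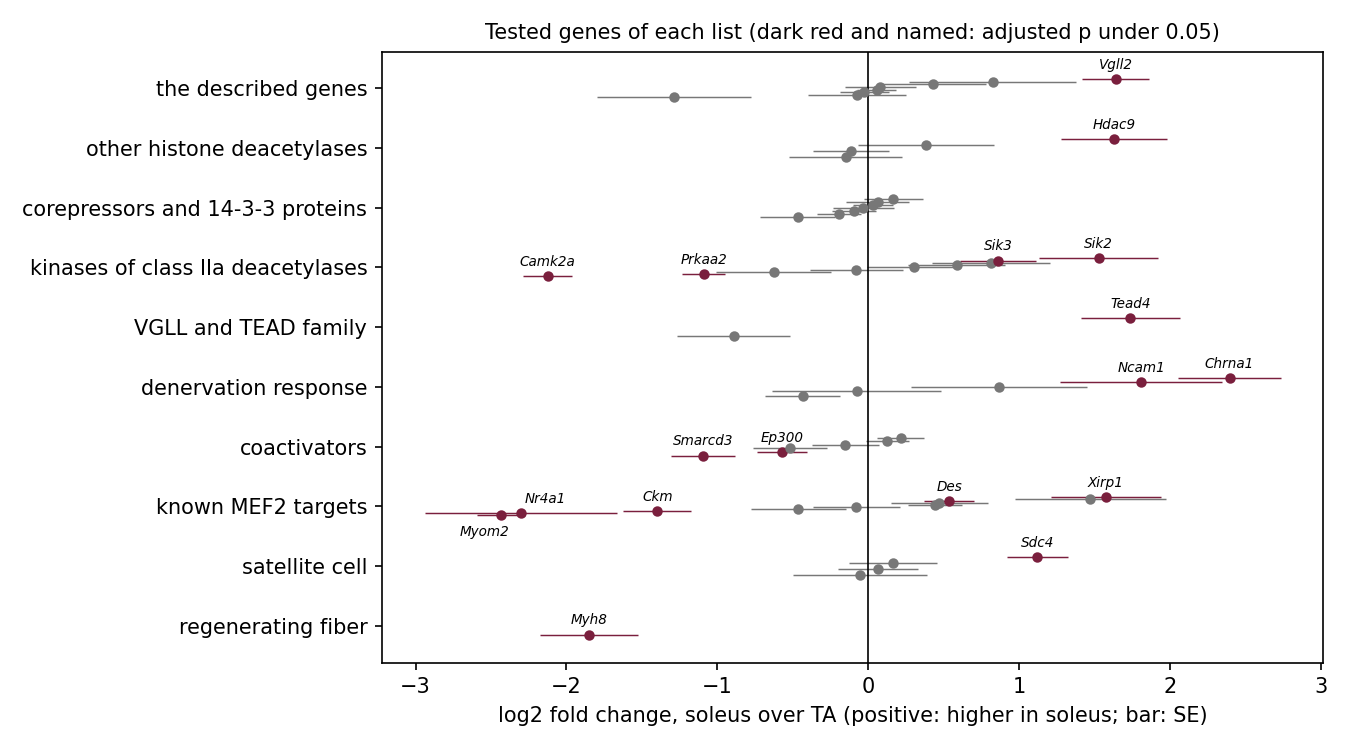
Log2 fold change of soleus over TA with SE bars for every tested gene of the described set and of each list, dark red and named where the adjusted p is under 0.05. Vgll2, Hdac9 and Tead4 stand between 1.63 and 1.74, while the tested corepressors and 14-3-3 proteins lie between -0.47 and 0.17.

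The genes whose profile over the 10 libraries was most like that of Vgll2 were Clu, Sdc4 and Mettl6. The measure was the root mean square difference of log2 CPM, each gene centred on its own mean, over 4850 tested genes with a median of 1.07. It was 0.383 for Clu, which encodes the chaperone clusterin, 0.385 for Sdc4 and 0.388 for Mettl6, which encodes a methyltransferase. Clu had a log2 fold change of 1.15 (SE 0.16, adjusted p = 0.000248, edgeR) and Mettl6 of 1.26 (SE 0.34, adjusted p = 0.0183, edgeR). The call on Mettl6 was lost without soleus female 2 (adjusted p = 0.0520) and without TA female 1 (adjusted p = 0.0597, edgeR).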

How the data were processed

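The 10 deposited files, from soleus and TA of 3 males and 2 females, list whole-number read counts by transcript. Per the labels' protocols, 10 ng of total RNA went into a stranded SMART-Seq preparation, also called Tag-Seq there. Trimmomatic 0.32, bcl2fastq, FastQC and GRCm38.p4 come from the submitters' processing notes. The aligner, the counter and its use of strand are not given in the sources used here.

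Transcripts were matched to GENCODE M21 without version, 40359 of 40414, and summed to 20009 genes. The other 55 were left out. Totals were 726414 to 961844 counts, and intervals and floors (3 counts) cover counting error only. In R 4.3.3, edgeR 4.0.16 with limma 3.58.1 filtered genes (filterByExpr by muscle and sex, 5115 left), scaled them by TMM and tested muscle with sex as covariate by the quasi-likelihood F test with Benjamini-Hochberg adjustment. A model with a mean per muscle and sex gave sex differences and the interaction. On simulated data of the 5115 genes, the fit called 50 of 100 genes with a 2-fold change, 94 of 100 with a 4-fold change and 6 unchanged genes. The simulated spread followed the fitted trend only, with no spread of single genes, sex effect, pairing or library that stands apart. These numbers thus do not hold for genes that vary more than the trend. Single values and shares were compared by exact permutation with Python 3.11.15, numpy 2.4.6, pandas 2.3.3 and scipy 1.17.1, and drawn with matplotlib 3.10.9. Transcripts with at least 20 counts entered the share tests, adjusted over 9 of them. The 7 family shares were not adjusted.

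The replicate numbers were read as mice: libraries of 1 number correlated after removal of group means with r of 0.183 to 0.239 in the 3 male pairs and 0.285 in the female pairs, which share 1 value by construction, so the mouse was used as a block in an alternative. Nothing else shows that samples are separate animals, and p-values measure the spread between these samples. Other alternatives were DESeq2 1.42.0 (size factors, Wald test), upper-quartile scaling, other filters, other library sizes, protein-coding transcripts only and each library left out. Leaving out libraries in the sex and interaction fits was added after the data were seen.

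Named were all 9 members, of each list up to 4 called genes of smallest p, markers that move with a member, and the 3 nearest genes of a called member by log2 CPM (prior count 2). Members and lists were chosen with earlier results of these data known. Promoter windows are RefSeq's on GRCm38.p6. Protein sequences were not used here.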

Additional observations from a re-analysis of the deposited data

Results flagged for a closer look

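Of 50 groups of 5 values tested with Dixon's criterion, 4 held a value far from the rest, where chance gives about 1 in 20. Myod1 had 59.4 CPM in soleus female 2, against 3.95 to 10.7 CPM in the other soleus libraries. In the same library it held 22.0% of the sum of Myod1, Myog and Myf6, against 2.94% to 7.69% in the other soleus libraries. This library also lists the most genes and has the highest summed satellite cell markers. Sdc4, among those markers, averaged 92.1 CPM over the soleus libraries, in which the sum ran from 104 to 289 CPM. The part of either in the Myod1 values was not tested. The other 2 were both from TA female 2. Mef2a-208 held 75.0% of Mef2a counts there, against 86.7% to 88.9% in the other TA libraries. Mef2a-207 held 20.8% there, against 0% to 5.56% in the other TA libraries.

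Myog moved opposite ways in the sexes: every male mouse had more in soleus than in TA and both female mice had less. The log2 fold change of soleus over TA was 3.00 higher in males than in females, but this did not pass over all genes (adjusted p = 0.501, edgeR).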

How the results depend on the processing

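Leaving out 1 library at a time gave 892 to 1353 called genes and 979 to 1528 called transcripts between the muscles, and 1 to 2 called members. With no filter, 2 members were called, and 2 with the replicate block, which called 1207 genes and changed no member's call but that of Myod1. Sign flips within mice, the replicate block of single values, cannot go under 0.0625, so Vgll2 did not pass there. Family shares that differed numbered 0 with the replicate block, 0 to 1 without 1 library and 2 on protein-coding transcripts.

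The interaction called 58 genes with no filter, and 0 to 79 without 1 library (79 without soleus female 1, 4 without soleus female 2). Sex called 449 genes in soleus and 240 in TA with no filter. Without 1 library it called 1 to 1022 in soleus and 1 to 162 in TA. The highest counts came without soleus female 1, and the cause was not tested. With no filter, 2 members differed by sex in TA, 1 in soleus and 1 in the interaction. Without 1 library 0 to 2 members differed by sex in TA and 0 to 2 in soleus.

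Values that turned sign were uncalled on both sides, except male over female of Myod1 in soleus, which was called at -2.65 without soleus female 1 and at -1.73 with no filter. On protein-coding transcripts alone the log2 fold change of Myf6 was 0.0101 and that of Mef2a -0.36, and the share difference was 0.90 points for Mef2d and 1.00 points for Hdac4. With 1 library left out, log2 fold changes ran from -0.0838 to 0.0526 for Myf6, -0.12 to 0.20 for Mef2a, -0.00363 to 0.12 for Mef2d, -0.36 to 0.11 for Hdac4 and -0.0929 to 0.0651 for Mef2d-201. Differences of mean CPM ran from -13.6 to 5.49 for Myf6, -1.92 to 3.82 for Mef2a, -2.44 to 14.03 for Mef2d and -7.71 to 2.30 for Hdac4. Share differences in points ran from -0.41 to 0.618 for Mef2d-204, -1.71 to 1.19 for Mef2a and -3.10 to 0.219 for Mef2d. The interaction ran from -2.03 to 1.73 for Myod1 and -0.0879 to 0.90 for Vgll2. Male over female in soleus ran from -2.65 to 1.11 for Myod1 and -0.95 to 0.49 for Myog, and in TA from -1.05 to 0.00335 for Myod1. Few counts limit Hdac5, with 25 counts of which 3 were on protein-coding transcripts, and transcript shares of Mef2a, with 18 to 39 counts a library.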
